A study of Mus musculus with 10 samples.

Results

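Transcripts of the killing machinery of lymphocytes were followed in whole MB-49 tumors: the granzyme genes Gzma, Gzmb, Gzmc, Gzmd, Gzme, Gzmf and Gzmk, the perforin gene Prf1, the granule protein gene Nkg7 and the Fas ligand gene Fasl. These 10 genes were chosen by symbol, and all 10 were found among the 24202 genes of the deposited table. Each of them had at least 14 reads in every tumor and a mean above the minimum of 10 normalized counts, so all 10 were tested. Cytotoxic T cells and natural killer (NK) cells store granzymes, a family of serine proteases, with perforin in secretory granules. On contact with a target cell the granules are released, perforin opens the target membrane, and granzymes enter and cleave proteins that start cell death. Fas ligand kills by another route, by binding the death receptor Fas on the target, and TGF-beta is known to lower the transcription of several of these genes.

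The tumors were grown from MB-49, a mouse bladder cancer line. In the PIIO-1 group, 100000 cells were injected subcutaneously into a flank of hLrrc32KI mice, which carry a human LRRC32 gene knocked into the mouse. LRRC32 encodes GARP, which holds latent TGF-beta on the cell surface, and PIIO-1 is the GARP antibody of the treatment label (a4D3 in the sample titles), injected into the peritoneum at 200 ug per mouse on days 6 and 9. In the PBS group, the same cells were grown in the same knock-in mice, which received PBS. Tumors of both groups (5 each) were collected on day 10, dispersed into single cells and sequenced as bulk RNA. The knock-in is thus shared by both groups, and the labels give neither age, sex nor strain, and do not state whether each tumor had its own mouse, so p-values cover only the spread between these samples.

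Whole reads in genes ranged from 29689555 to 35299028 in PIIO-1 tumors and from 18843192 (tumor 4) to 37581521 in PBS tumors. Values below are normalized read counts, in which 3 reads are worth between 2.45 and 4.68 (a floor that covers counting error only). Among markers of the labelled bladder line, the keratin genes Krt8 and Krt18 had at least 50275 and 29446 normalized counts in every tumor. The epithelial gene Epcam was low, between 10.9 and 29.6, and the keratin gene Krt5 lay between 1.96 and 139. The urothelial uroplakin genes were low, with Upk1a between 18.6 and 41.3, Upk1b at most 21.2, and Upk2 and Upk3a at 0 in 5 and 4 of the 10 tumors. T cell and NK cell genes, which mark the cells that make granzymes, were present in every tumor, with Cd3e between 115 and 311 and Ncr1 between 208 and 487 normalized counts. In bulk tumor RNA, fewer cells of a type and less RNA per cell cannot be told apart.

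Gzmb, Gzmc, Gzmd, Gzme and Gzmf, 5 of the 10 genes, stand together within 144.6 kb of chromosome 14 (56117626 to 56262260, GRCm38), all protein-coding and on the minus strand. Gzma and Gzmk lie within 132.1 kb of chromosome 13, Prf1 on chromosome 10, Nkg7 on chromosome 7 and Fasl on chromosome 1. The 250 bases upstream of the RefSeq transcription start are shown for Gzmb and for 3 of its neighbours, because the profiles of these 3 neighbours over the tumors lay closer to each other than to that of Gzmb (values below). The sequences are from RefSeq, GRCm38.p6, minus strand, 5′ to 3′, at chr14:56262335-56262584 for Gzmb, chr14:56234658-56234907 for Gzmc, chr14:56132594-56132843 for Gzmd and chr14:56120626-56120875 for Gzme. Capitals mark matches, on either strand, to the RUNX core TGTGGT, the AP-1 motif TGANTCA or the CREB and ATF motif TGACGTCA.
Gzmb: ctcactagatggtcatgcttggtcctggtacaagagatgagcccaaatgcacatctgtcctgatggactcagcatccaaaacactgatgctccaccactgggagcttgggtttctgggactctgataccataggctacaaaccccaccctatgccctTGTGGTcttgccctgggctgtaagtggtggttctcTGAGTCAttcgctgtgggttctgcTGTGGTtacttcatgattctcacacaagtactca
Gzmc: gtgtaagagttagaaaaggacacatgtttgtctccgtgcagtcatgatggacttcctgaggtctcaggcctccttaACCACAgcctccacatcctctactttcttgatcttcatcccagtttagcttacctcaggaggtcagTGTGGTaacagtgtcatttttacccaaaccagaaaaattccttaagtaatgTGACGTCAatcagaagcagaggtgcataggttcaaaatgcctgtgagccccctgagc
Gzmd: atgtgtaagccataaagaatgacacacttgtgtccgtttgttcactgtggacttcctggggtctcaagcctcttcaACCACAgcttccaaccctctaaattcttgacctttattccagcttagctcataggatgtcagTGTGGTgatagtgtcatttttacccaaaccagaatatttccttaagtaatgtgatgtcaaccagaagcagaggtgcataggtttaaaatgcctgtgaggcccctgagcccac
Gzme: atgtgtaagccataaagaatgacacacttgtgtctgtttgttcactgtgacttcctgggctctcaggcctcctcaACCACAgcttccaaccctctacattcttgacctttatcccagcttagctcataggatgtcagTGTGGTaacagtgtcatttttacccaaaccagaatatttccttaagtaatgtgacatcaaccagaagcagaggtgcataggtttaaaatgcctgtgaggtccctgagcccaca

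The upstream sequences of Gzmd and Gzme were identical at 238 of 251 aligned positions (94.8%), and the 6 pairs among Gzmc, Gzmd, Gzme and Gzmf lay between 71.5% and 94.8%. Gzmb shared 47.3% to 52.2% with these 4 genes, inside the 46.2% to 53.0% span of all 39 other pairs of the 10 genes. The windows follow RefSeq starts, which differ for some genes from the GENCODE gene coordinates given here. The Gzmb window, from 56262335, leaves a gap to its gene end at 56262260, and the bases in that gap were not compared. The Gzmd and Gzmf windows, from 56132594 and 56211408, reach into their genes, which end at 56132608 and 56211417. The Gzmk window, 113180966 to 113181215, lies wholly inside its GENCODE gene (113171608 to 113225908), so the bases upstream of that gene were not searched. Each of Gzmc, Gzmd, Gzme and Gzmf held the RUNX core once on each strand, in Gzmd at -174 to -169 and at -112 to -107 from the start. Gzmb held that core at -93 to -88 and -34 to -29, with the AP-1 motif at -58 to -52 between them. The RUNX core was not confined to chromosome 14: it was also found in the windows of Gzma (-50 to -45), Prf1 (-130 to -125) and Nkg7 (-83 to -78), but not of Gzmk or Fasl. The CREB and ATF motif was found in Gzmc and Gzmf. Of 32851 RefSeq windows of the same length, 14.1% held the RUNX core, 6.75% the AP-1 motif and 1.55% the CREB and ATF motif. T-box (AGGTGTGA) and STAT (TTCNNNGAA) motifs, present in 1.12% and 7.02% of windows, were found only in the Nkg7 window among the 10 genes, and the SMAD palindrome GTCTAGAC (0.167% of windows) in none. The Nkg7 window runs to 43437137, past the GENCODE gene start at 43437073, and its T-box match at -14 to -7 lies inside that gene. A match is a string of letters in this window and shows no binding.

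Between PIIO-1 and PBS tumors, the 95% interval of the difference spanned 0 for all 10 genes. Perforin and granzyme B had the lowest estimates, -0.27 (SE 0.18) for Prf1 and -0.25 (SE 0.20) for Gzmb, and Gzmk the highest, 0.20 (SE 0.34). These and all later differences are PIIO-1 minus PBS, in log2 units of the normalized count plus 1. The limma test with Benjamini-Hochberg adjustment over all genes called 0 of the 10 genes at 0.05, with adjusted p between 0.854 and 0.996. The same test called 0 of 16767 genes (0%). At an unadjusted p under 0.05 it counted 0 of the 10 genes, against 5.63% of all genes tested. The edgeR and DESeq2 tests on the whole reads also counted 0 of the 10 genes at either threshold. The values of the PIIO-1 and PBS tumors overlapped for all 10 genes, where 0.853% of all genes had groups that did not overlap. The estimates were negative for 7 and positive for 3 of the 10 genes, with a median of -0.088, and over all genes tested the median was 0.0027.

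**Figure D1:**
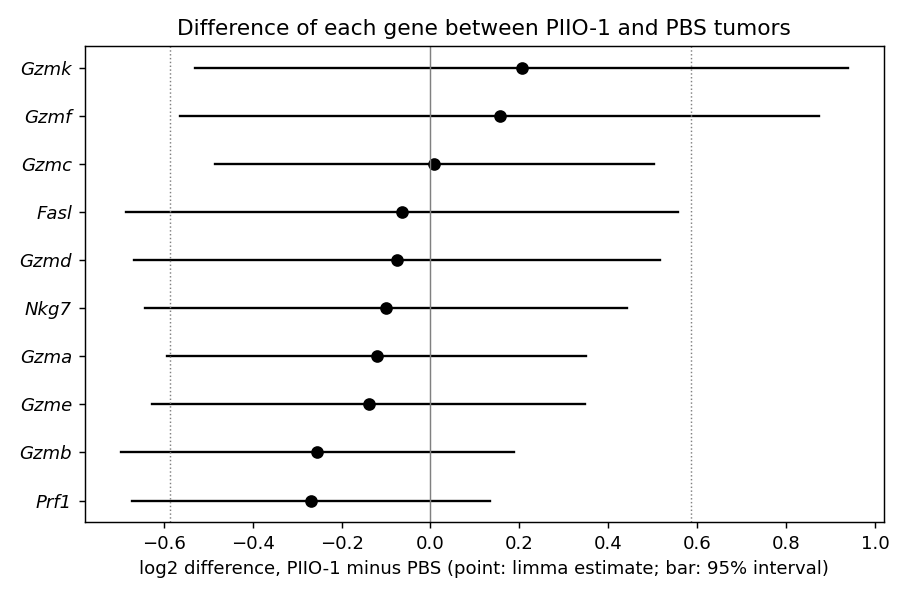
Log2 difference (x axis, PIIO-1 minus PBS) of each of the 10 genes (y axis), with points for limma estimates, bars for 95% intervals and dotted lines at a 1.5-fold difference either way. Every interval spans 0, from Prf1 (-0.67 to 0.13) at the bottom to Gzmk (-0.53 to 0.94) at the top.

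Perforin, the pore-forming protein of the granule, is encoded by Prf1 (chromosome 10, 61297833 to 61304680, plus strand). Prf1 stood at 1885, 3285, 2902, 3734 and 3180 normalized counts in PIIO-1 tumors 1 to 5, and at 4197, 2948, 3644, 2715 and 4423 in PBS tumors 1 to 5. PIIO-1 tumor 1 was the lowest of all, and only 1 of 5 PIIO-1 tumors lay above the PBS median. The means were 2997 ± 690.2 in PIIO-1 and 3586 ± 749 in PBS tumors (SD, n = 5 each), and the 95% interval of the difference ran from -0.67 to 0.13, or 0.628-fold to 1.10-fold. Without PIIO-1 tumor 1 the estimate was -0.11, and without PBS tumor 4 it was -0.36, with no call in either fit.

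Granzyme B cleaves caspases and the BH3 protein BID in the target cell (Gzmb, chromosome 14, 56258838 to 56262260). Gzmb stood at 5209, 9744, 8175, 13747 and 10135 normalized counts in PIIO-1 tumors 1 to 5, and at 12117, 9962, 10193, 9661 and 11743 in PBS tumors 1 to 5. The PIIO-1 tumors held both the lowest value (tumor 1) and the highest (tumor 4), and the PBS values lay between these extremes. The standard deviation over 5 tumors was 3107 around a mean of 9402 in PIIO-1 tumors (0.51 on the log2 scale) and 1115 around a mean of 10735 in PBS tumors (0.15 on the log2 scale). This difference in spread was not tested. The estimate of -0.25 (95% interval -0.70 to 0.19) was -0.059 when PIIO-1 tumor 1 was left out and -0.41 when PIIO-1 tumor 4 was. Without tumor 4 the unadjusted p was 0.0376 by limma, and the adjusted p, 0.824 or more in every fit with 1 tumor left out, did not pass.

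Granzyme A is a protease that cleaves after basic residues, with targets other than the caspases (Gzma, chromosome 13, 113093825 to 113100981). Gzma stood at 3223, 5846, 5709, 8386 and 6208 normalized counts in PIIO-1 tumors 1 to 5, and at 6491, 4841, 6713, 5207 and 7762 in PBS tumors 1 to 5. As for Gzmb, PIIO-1 tumor 1 was the lowest and PIIO-1 tumor 4 the highest of the 10 tumors. The difference of -0.12 (SE 0.22, 95% interval -0.59 to 0.35) became 0.079 without PIIO-1 tumor 1, so its sign rests on that tumor.

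**Figure D2:**
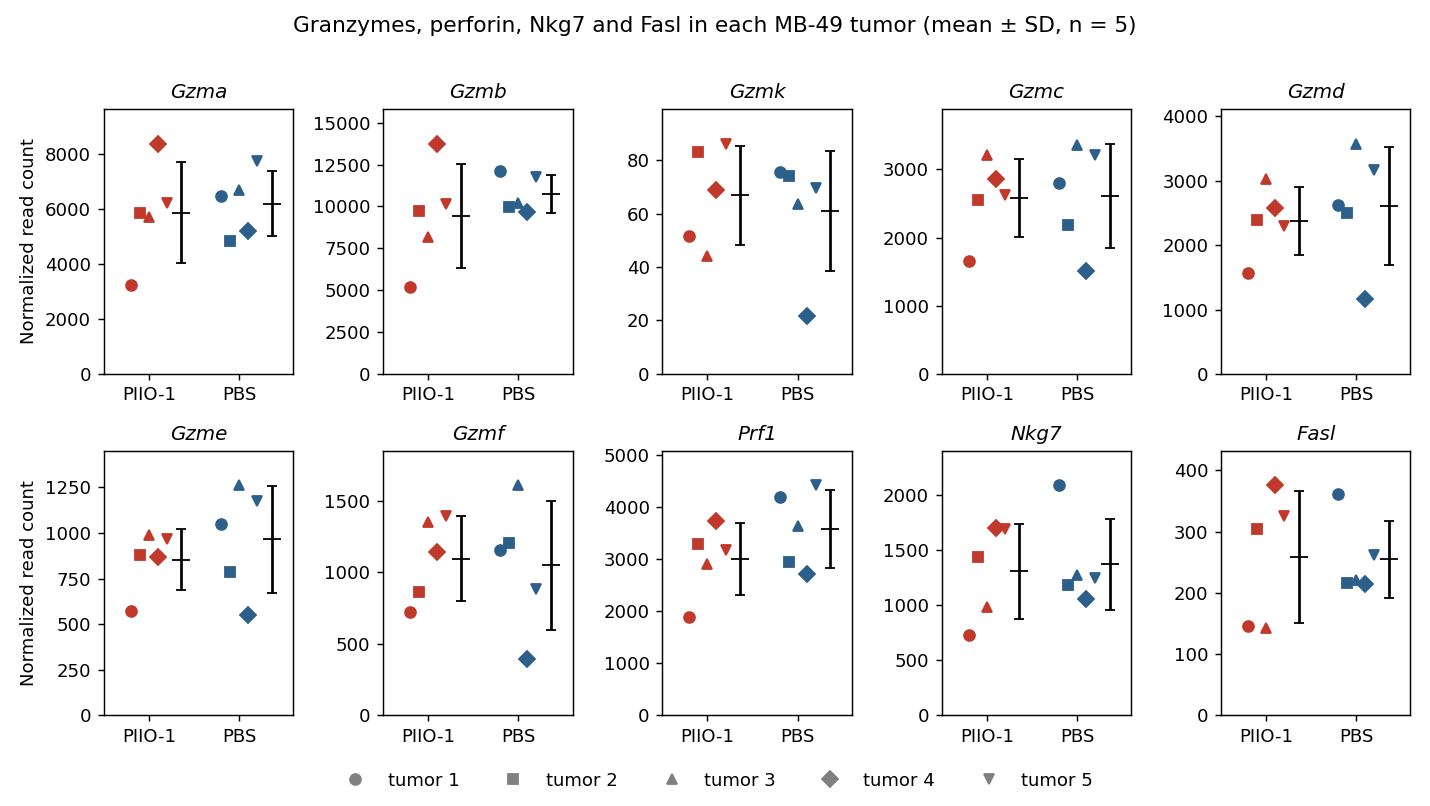
Normalized read count (y axis, from 0) of each of the 10 genes in the 5 PIIO-1 tumors (red) and the 5 PBS tumors (blue), with a marker shape for each tumor number and a bar for mean ± SD. The groups overlap in every panel. PIIO-1 tumor 1 is lowest for Gzma, Gzmb, Prf1 and Nkg7, and PBS tumor 4 is lowest for Gzmk, Gzmc, Gzmd, Gzme and Gzmf.

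Granzymes C, D, E and F are rodent proteases that cytotoxic lymphocytes are known to make after strong or prolonged activation. Their transcripts are alike: of the 50-base stretches in annotated transcripts, 21.9% of those of Gzmd, 20.65% of Gzme, 7.36% of Gzmf and 4.14% of Gzmc also occur in another granzyme gene, while Gzmb, Gzma and Gzmk share none. At 100 bases only 0.231% of Gzmd stretches are shared, with the neighbour Gzmg. The read length is not given in the sources used here, so single values of these genes are uncertain where reads could fall on a neighbour.

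Gzmc (chromosome 14, 56231441 to 56234656) stood at 1655, 2556, 3213, 2851 and 2626 normalized counts in PIIO-1 tumors 1 to 5, and at 2793, 2186, 3351, 1503 and 3216 in PBS tumors 1 to 5. Its group means lay closest of the 10 genes on the log2 scale, with a difference of 0.0084 (SE 0.23, 95% interval -0.49 to 0.50). PBS tumor 4 and PIIO-1 tumor 1 were the lowest, and the sign was negative without any of PIIO-1 tumors 3, 4 or 5 or PBS tumors 2 or 4 (-0.079, -0.036, -0.0064, -0.041 and -0.18). Gzmd (56129556 to 56132608) stood at 1565, 2385, 3026, 2585 and 2300 normalized counts in PIIO-1 tumors 1 to 5, and at 2631, 2504, 3577, 1170 and 3164 in PBS tumors 1 to 5. The same tumors were lowest, the difference was -0.076 (SE 0.27), and it was positive without PIIO-1 tumor 1 (0.066), PBS tumor 3 (0.062) or PBS tumor 5 (0.017).

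Gzme (56117626 to 56120625) stood at 572, 879, 989, 868 and 965 normalized counts in PIIO-1 tumors 1 to 5, and at 1051, 784, 1262, 549 and 1177 in PBS tumors 1 to 5. No PIIO-1 tumor lay above the PBS median, yet the difference of -0.14 (SE 0.22, 95% interval -0.63 to 0.35) was -0.00026 without PIIO-1 tumor 1. Gzmf (56205263 to 56211417) stood at 723, 863, 1353, 1143 and 1396 normalized counts in PIIO-1 tumors 1 to 5, and at 1156, 1209, 1611, 395 and 882 in PBS tumors 1 to 5. Its highest and lowest tumors, PBS tumors 3 and 4, were 4.08-fold apart, the widest span of the 10 genes. The difference of 0.16 (SE 0.33) was -0.16 without PBS tumor 4. Gzmf overlaps Gm4022 on the other strand, and since the strand setting of the counting is not given, their reads cannot be told apart.

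Granzyme K, which in mice marks memory-like and less differentiated CD8 T cells, was the scarcest of the 10 (Gzmk, chromosome 13, 113171608 to 113225908). Gzmk stood at 51.7, 83.2, 44.2, 68.8 and 86.2 normalized counts in PIIO-1 tumors 1 to 5, and at 75.5, 74.1, 63.7, 21.8 and 69.8 in PBS tumors 1 to 5. PBS tumor 4 stood far below the other PBS tumors, with 14 reads in the library with the fewest reads, and the other 9 tumors lay within 44.2 to 86.2. The difference of 0.20 (SE 0.34, 95% interval -0.53 to 0.94) was -0.12 without PBS tumor 4. The annotated Gzmk locus overlaps Esm1, which lies on the plus strand and whose reads cannot be told apart where exons coincide.

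Nkg7, a membrane protein of the granule that is needed for its release, and Fas ligand shared a pattern. Nkg7 (chromosome 7, 43437073 to 43438249) stood at 724, 1434, 982, 1697 and 1685 normalized counts in PIIO-1 tumors 1 to 5, and at 2087, 1179, 1275, 1055 and 1247 in PBS tumors 1 to 5. Fasl (chromosome 1, 161780689 to 161788495) stood at 145, 303, 143, 376 and 325 normalized counts in PIIO-1 tumors 1 to 5, and at 361, 217, 220.5, 214 and 261 in PBS tumors 1 to 5. For both genes PIIO-1 tumors 1 and 3 were the lowest of the 10 tumors, and PIIO-1 tumor 4 and PBS tumor 1 were the highest. The differences were -0.10 (SE 0.25, 95% interval -0.64 to 0.44) for Nkg7 and -0.064 (SE 0.28, 95% interval -0.68 to 0.56) for Fasl. Both were positive without PIIO-1 tumor 1 (0.093 and 0.11) and without PBS tumor 1 (0.063 and 0.069), and Fasl also without PIIO-1 tumor 3 (0.12).

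Levels of different genes were compared per kilobase of annotated exon. Gzmb was the most abundant, with 3628 to 9573 normalized counts per kilobase over the 10 tumors, and lay above Gzma in 10 of 10 tumors. Gzma (3204 to 8336 per kilobase) lay above Gzmc in 10 of 10 tumors, and Gzmc (1681 to 3749 per kilobase) above Gzmd in 9. Gzmd (1214 to 3711 per kilobase) stood above Nkg7 in 10 of 10 tumors. Nkg7, Prf1, Gzmf and Gzme followed with medians of 1380, 1251, 1251 and 1006 per kilobase, and neighbours in this stretch kept their order in 7, 5 and 7 of 10 tumors, so that no neighbouring pair had a steady order. Gzme was nonetheless below Prf1 in 10 and below Nkg7 in 9 of the 10 tumors. Fasl (median 124 per kilobase) and Gzmk (49.9 per kilobase) closed the order, each below the gene before it in all 10 tumors. Together the 10 genes took 0.0523% to 0.113% of the reads in PIIO-1 tumors and 0.0765% to 0.11% in PBS tumors.

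Within the groups, the levels of the 10 genes varied from tumor to tumor, and PIIO-1 tumor 1 and PBS tumor 4 were below the mean for all 10. Relative to each gene's own mean over the 10 tumors, PIIO-1 tumor 1 stood at -0.86 for Gzma, -0.91 for Gzmb, -0.77 for Prf1, -0.82 for Nkg7 and -0.74 for Fasl on the log2 scale. That tumor also stood at -0.60 for Gzmc, -0.61 for Gzmd, -0.62 for Gzme, -0.48 for Gzmf and -0.21 for Gzmk. It was among the 2 lowest tumors for 9 of the 10 genes, all but Gzmk. PBS tumor 4 stood at -0.74 for Gzmc, -1.02 for Gzmd, -0.68 for Gzme, -1.35 for Gzmf and -1.42 for Gzmk. It was nearer the mean for Gzmb (-0.02), Gzma (-0.17), Fasl (-0.19), Prf1 (-0.24) and Nkg7 (-0.28). These levels were read off the same 10 tumors and carry no test.

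**Figure D3:**
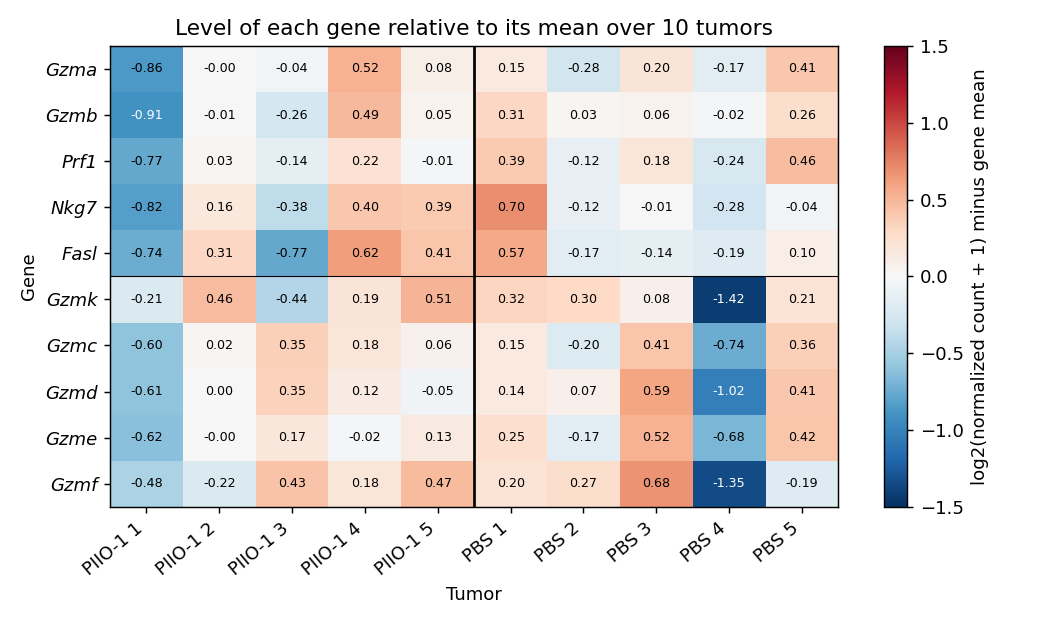
Level of each gene (rows) in each tumor (columns, PIIO-1 left and PBS right) as log2(normalized count + 1) minus the gene's mean over the 10 tumors, with red above and blue below that mean. PIIO-1 tumor 1 is blue for all 10 genes, while PBS tumor 4 is deep blue for Gzmk and Gzmc to Gzmf but near 0 for Gzmb (-0.02).

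Likeness between genes was measured as the root mean square difference of their mean-centred log2 levels over the 10 tumors, where 0 means the same profile. Gzmc and Gzme were the closest pair (0.11), with Gzmd at 0.14 from Gzmc and 0.17 from Gzme. Gzma, Gzmb and Prf1 lay at similar distances from each other (Gzma to Prf1 0.14, Gzma to Gzmb 0.15, Gzmb to Prf1 0.16). Nkg7 and Fasl differed by 0.17. Gzmb lay 0.36, 0.44 and 0.35 from its chromosome 14 neighbours Gzmc, Gzmd and Gzme. Gzmf, whose upstream sequence is closer to theirs, lay 0.35 from Gzmc, 0.29 from Gzmd, 0.36 from Gzme and 0.58 from Gzmb. Gzmf was thus about as far from Gzmc and Gzme as Gzmb was, and nearer to Gzmd. Gzmk had no near partner, with 0.43 to 0.55 to the other 9 genes. All profiles share the same 10 libraries, so these are descriptions.

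The ratio of Gzmc, Gzmd, Gzme and Gzmf together to Gzmb, in normalized read counts, was taken within each tumor. It was 0.867, 0.686, 1.05, 0.542 and 0.719 in PIIO-1 tumors 1 to 5, and 0.630, 0.671, 0.962, 0.374 and 0.719 in PBS tumors 1 to 5. PIIO-1 tumor 3 was the highest and PBS tumor 4 the lowest, 2.80-fold apart, and the groups overlapped. The ratios of Prf1 to Gzmb (0.328 ± 0.0365 in PIIO-1 and 0.332 ± 0.0411 in PBS tumors, SD, n = 5 each) and of Gzma to Gzmb (0.628 ± 0.0400 in PIIO-1 and 0.576 ± 0.0793 in PBS tumors) spanned 1.39-fold and 1.44-fold over the 10 tumors.

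**Figure D4:**
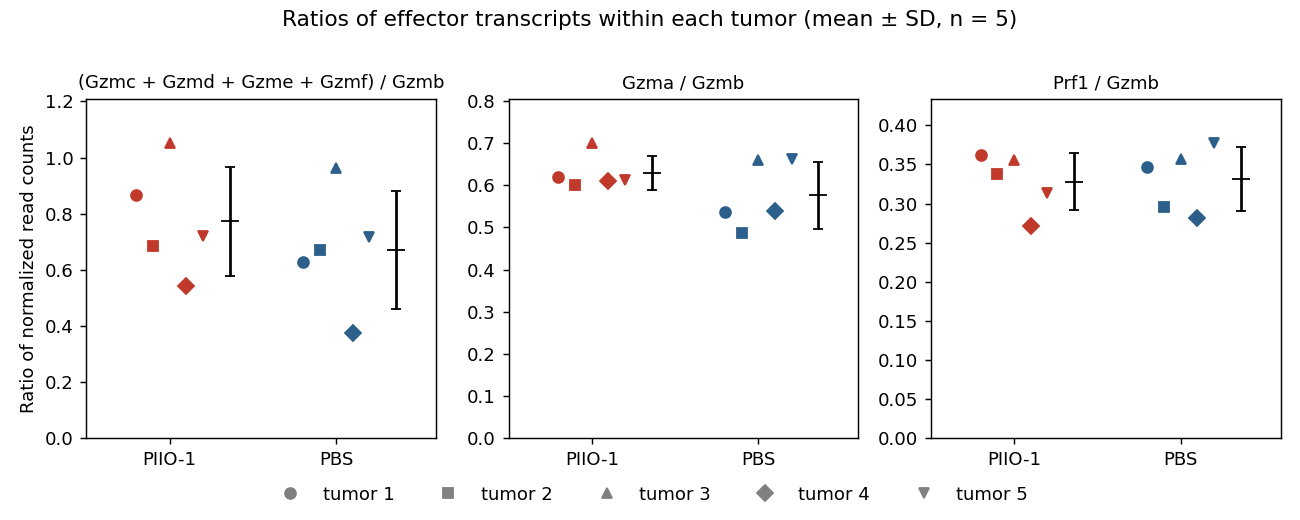
Ratio of normalized read counts (y axis, from 0) within each of the 5 PIIO-1 tumors (red) and 5 PBS tumors (blue), for Gzmc to Gzmf together over Gzmb, Gzma over Gzmb and Prf1 over Gzmb, with mean ± SD. The first ratio runs from 0.374 in PBS tumor 4 to 1.05 in PIIO-1 tumor 3, and the other ratios stay within a narrower span.

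Levels of lymphocyte markers differed among the same tumors. The summed T cell list (Cd3d, Cd3e, Cd3g, Trac, Cd5 and Cd6) ran from 1108 to 3036 normalized counts in PIIO-1 tumors and from 1489 to 2959 in PBS tumors, with 1153 in PIIO-1 tumor 1 and 1489 in PBS tumor 4. Ptprc, which encodes the leukocyte antigen CD45, ran from 7928 (tumor 1) to 17430 in PIIO-1 tumors and from 9056 to 14609 in PBS tumors, with 12735 in PBS tumor 4. Of the 6 NK genes, Ncr1, Klrb1c and Klre1 were lowest in PIIO-1 tumor 1 (208, 258 and 140 normalized counts, against highest values of 487, 724 and 360), while PBS tumor 4 held 417, 538 and 259. The others were lowest elsewhere: Klra8 in PIIO-1 tumor 3 (208, with 212 in PIIO-1 tumor 1), Klri2 in PBS tumor 2 (163, with 172 in PIIO-1 tumor 1) and Klra4 in PBS tumor 4 (3672). Klra4 in PIIO-1 tumor 1, at 4402, was among the 3 highest of the 10 tumors. The NK list summed to 5391 to 6371 in PIIO-1 and 5599 to 6328 in PBS tumors, most of it Klra4. No member of either list was at 0 in any tumor, 1 of 6 T cell and 1 of 6 NK genes had a positive estimate, and 0 passed. 

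When each gene was set against the mean log2 level of Cd3d, Cd3e and Cd3g in the same tumor, the spread narrowed most for Nkg7 and Fasl and widened for Gzma, Gzmc, Gzmd, Gzme and Prf1. The span from the lowest to the highest of the 10 tumors was 0.56 for Nkg7 relative to CD3, against 1.53 for Nkg7 alone, and 0.68 against 1.39 for Fasl. It was 1.21 against 1.40 for Gzmb, 1.39 against 1.38 for Gzma, 1.47 against 1.23 for Prf1 and 1.66 against 1.16 for Gzmc. Relative to the mean log2 level of the 6 NK genes the spans were 0.71 for Gzma, 0.72 for Gzmb, 0.70 for Prf1, 0.77 for Nkg7 and 0.63 for Fasl. The narrowing was not confined to NK genes. Relative to the 4 macrophage genes the spans were 0.65 for Gzma, 0.85 for Gzmb and 0.71 for Prf1, and relative to Ptprc alone they were 0.86, 0.92 and 1.02. Relative to the 2 CD8 genes the same spans were wider than those of the genes alone, at 2.13 for Gzma, 2.03 for Gzmb and 2.29 for Prf1. The spans of Gzmc, Gzmd, Gzme, Gzmf and Gzmk relative to the NK genes were wider than those of the genes alone, between 1.43 and 2.35. With the CD3 level as a term in the fit across all genes, the estimates were -0.21 for Gzmb and -0.23 for Prf1, and 0 of the 10 genes passed (limma, adjusted p of at least 0.650).

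**Figure D5:**
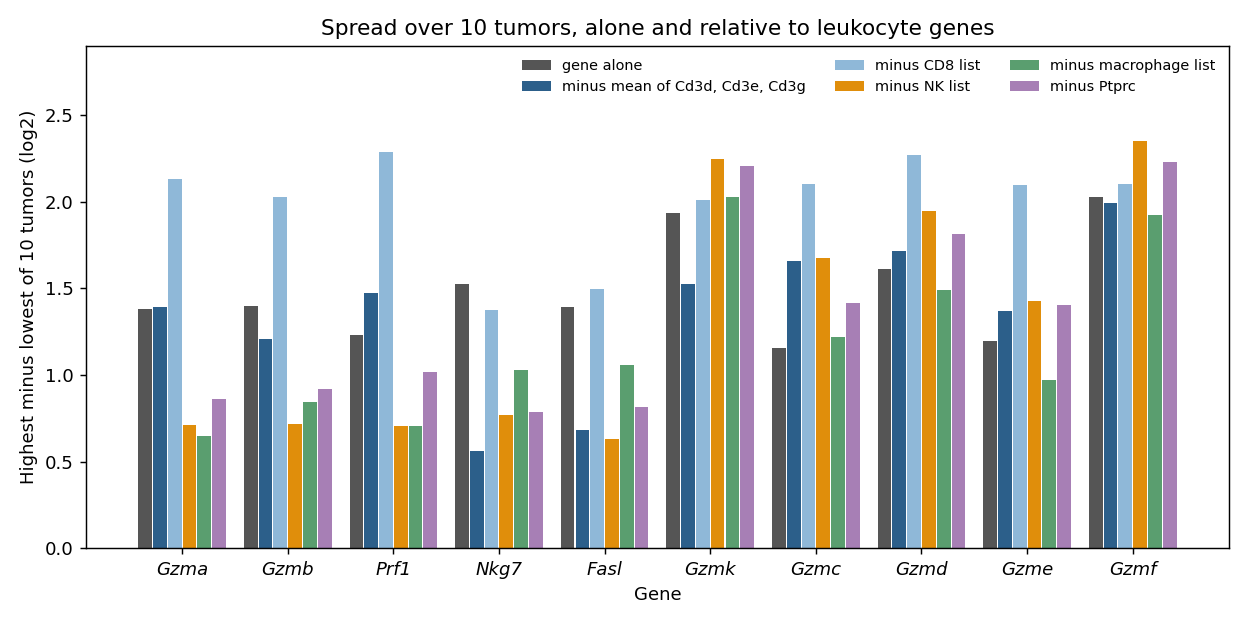
Highest minus lowest of the 10 tumors on the log2 scale (y axis, from 0) for each gene alone (grey) and relative to the mean log2 level of Cd3d, Cd3e and Cd3g (dark blue), the CD8 list (light blue), the NK list (orange), the macrophage list (green) or Ptprc (purple). For Gzma, Gzmb and Prf1 the orange, green and purple bars are shorter than the grey bar and the light blue bar is longer. For Nkg7 and Fasl the dark blue, orange, green and purple bars are shorter, and for Gzmc to Gzmf and Gzmk the orange and purple bars are longer.

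Marker genes of other cell types were also read. Of 5 mast cell and basophil genes all 5 had positive estimates, as had 8571 of 16767 genes tested, and 0 passed. Only Ms4a2 had an unadjusted p under 0.05 (0.032, limma), where 5.63% of all genes tested did. Its difference was 1.28 (SE 0.53), with 24.9 to 222 normalized counts in PIIO-1 and 21.5 to 40.6 in PBS tumors. The 5 genes summed to 773 to 2125 normalized counts in PIIO-1 tumors and to 742 to 1056 in PBS tumors, highest in PIIO-1 tumor 5. The 5 plasmacytoid dendritic cell genes, whose cells are known to hold granzyme B, summed to 279 to 560 in PIIO-1 and 266 to 451 in PBS tumors, again highest in PIIO-1 tumor 5. PIIO-1 tumor 5 held 10135 normalized counts of Gzmb, between the values of the other tumors. PIIO-1 tumor 4, the highest in Gzmb (13747), had the second-highest sums of both lists (1670 and 495), and PIIO-1 tumor 1, the lowest in Gzmb (5209), had the second-lowest plasmacytoid dendritic cell sum (279) and a mast cell sum of 935. The gamma delta T cell gene Trdc ran from 62.7 to 172 in PIIO-1 and from 75.1 to 165 in PBS tumors. The CD8 list (Cd8a and Cd8b1) summed to 508 to 1669 in PIIO-1 and 481 to 1662 in PBS tumors, and Cd4 with Foxp3 to 354 to 842 in PIIO-1 and 406 to 730 in PBS tumors. The macrophage list (4 genes) summed to 12583 to 27116 in PIIO-1 and 16198 to 26743 in PBS tumors. The neutrophil list (4 genes, all with positive estimates) summed to 13139 to 33201 in PIIO-1 and 11106 to 23048 in PBS tumors. All of these lists overlapped between the groups, and their part in the granzyme values was not tested.

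Genes that work with granzymes and perforin gave no call, in a test that called 0 of 16767 genes. Of 67 tested genes in 8 lists 0 passed (smallest adjusted p = 0.837, limma), 36 estimates were positive and 31 negative, with a median of 0.020. At an unadjusted p under 0.05 in either direction, 3 of the 67 (4.48%) were counted, against 5.63% of all genes tested. All 3 were lower in PIIO-1 tumors, a direction seen only afterwards, in which 2.77% of all genes tested were counted. The largest of these belonged to Il12rb1, the receptor subunit through which IL-12 raises cytotoxicity. Il12rb1 stood at 2116, 2691, 2320, 3443 and 2199 normalized counts in PIIO-1 tumors 1 to 5, and at 3759, 3559, 3627, 2863 and 3140 in PBS tumors 1 to 5. All PIIO-1 tumors but tumor 4 lay below every PBS tumor (difference -0.42, SE 0.13, 95% interval -0.70 to -0.15). The cytokine and receptor list had 4 positive and 9 negative estimates, with Il15ra, which presents IL-15, at -0.19 (SE 0.086).

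Serpinb9, an inhibitor that protects cells from granzyme B, averaged 8057 ± 510.0 normalized counts in PIIO-1 and 8814 ± 396 in PBS tumors, a difference of -0.13 (SE 0.053). Serpinb9b, a related serpin, differed by -0.15 (SE 0.13), and 3 of the 4 inhibitor genes had negative estimates. Bid, whose product granzyme B and caspase-8 cleave, averaged 1827 ± 128 in PIIO-1 and 2068 ± 151 in PBS tumors, a difference of -0.18 (SE 0.063). Fadd, the adaptor that couples Fas to caspase-8, differed by -0.17 (SE 0.091), and the death receptor and substrate list was split 6 to 6. The groups of PIIO-1 and PBS tumors overlapped for all 67 genes, where 0.853% of all genes tested had groups that did not overlap.

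Of the genes that load and release granules, Srgn, whose proteoglycan serglycin binds granzymes, differed by 0.28 (SE 0.21) and Igf2r, a receptor that sorts them, by 0.10 (SE 0.058). Lyst, a regulator of granule size, differed by 0.23 (SE 0.11) and the granule fusion gene Vamp7 by -0.10 (SE 0.069). The storage list had 6 positive and 3 negative estimates and the release list 5 and 5. Of 10 transcription factor genes of cytotoxic cells 9 were positive (median 0.069), with Stat5a at 0.12 (SE 0.072) and Stat4 at 0.26 (SE 0.21). Tgfb1 differed by 0.15 (SE 0.11) and the TGF-beta receptor gene Tgfbr2 by -0.056 (SE 0.060) in a list split 4 to 3. Of the other granzymes, Gzmm averaged 71.3 ± 7.77 normalized counts in PIIO-1 and 80.9 ± 13.4 in PBS tumors (difference -0.17, SE 0.15). Gzmg, a neighbour of Gzmd, averaged 2687 ± 872 in PIIO-1 and 2620 ± 1175 in PBS tumors and was, like Gzmc to Gzmf, lowest in PBS tumor 4 (953). Gzmn was not tested, with at most 14 reads in a tumor.

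Over all genes tested, those whose profile over the 10 tumors came closest to Gzmb were, apart from the 10 genes themselves, March1 (root mean square difference 0.099 on the log2 scale), Tmprss6 (0.12) and Cd40 (0.13). Closest to Prf1 were Abcg1 (0.11), Smim24 (0.13) and Lrrc25 (0.13), and closest to Gzmc were Gm20056 (0.11), Cd68 (0.14) and Sh2d1b2 (0.15), also with the 10 genes left out of the ranking. Of those 10, Gzme (0.106) lay nearer to Gzmc than Gm20056 (0.114), and Gzmd (0.143) nearer than Sh2d1b2 (0.155). To Gzmb and Prf1 none of the 10 lay nearer than the outside genes named. The nearest of the 10 was Gzma, at 0.152 from Gzmb and 0.145 from Prf1. For scale, the root mean square deviation from the own mean was 0.36 for Gzmb, 0.34 for Prf1 and 0.38 for Gzmc. None of these 9 genes passed the test between the groups (limma, adjusted p between 0.867 and 0.992).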

How the data were processed

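The 10 tumors were grouped by the treatment label and numbered by sample title. The authors deposited 1 normalized count per gene and tumor (a signal scaled by DESeq2, per the table's name). The submitters' processing notes also name HISAT2, featureCounts and build GRCm38. The annotation is not given in the sources used here, nor are tool versions or the strand setting. Each column was divided by its smallest step to recover reads, and 100% of values came out whole within 0.001 read. The main test was limma 3.58.1 (R 4.3.3, intensity trend, two-sided) on log2(value + 1) for 16767 genes with a mean of at least 10; adding 1 makes changes of low genes look smaller. Alternatives were another pseudocount, filter or scaling, no trend, array weights, a block for replicate number, the CD3 level as a covariate, tumors left out, and edgeR 4.0.16 and DESeq2 1.42.0 on the recovered reads. The limma step was tested on simulated data. Coordinates and exon lengths are from GENCODE M21 (GRCm38). Members and lists were chosen with earlier results of these data known. Named genes are the members, the 2 smallest-p genes of each list and the 3 genes nearest to Gzmb, Prf1 and Gzmc; others were chosen after their values were seen.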

Additional observations from a re-analysis of the deposited data

Results flagged for a closer look

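In 3 of 20 groups of 5 tumors (10 genes, 2 treatments), 1 tumor stood apart from the other 4 on the log2 scale, with a gap to its nearest neighbour above 0.71 of the group's range. Chance flags about 1 in 20 groups. Gzme was low in PIIO-1 tumor 1 (gap 0.761 of the range), at 572 normalized counts against 868 to 989 in the other PIIO-1 tumors. Gzmk was low in PBS tumor 4 (gap 0.862 of the range), at 21.8 against 63.7 to 75.5. Nkg7 was high in PBS tumor 1 (gap 0.723 of the range), at 2087 against 1055 to 1275.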

How the results depend on the processing

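None of the 10 genes passed in any of 23 alternatives (smallest adjusted p = 0.650), and 204 of 230 recomputed differences kept their sign. That count includes the filter, no-trend and replicate-block alternatives, which cannot change a difference and so kept every sign by design. Only Gzmb, Gzme and Prf1 kept their sign throughout. DESeq2 called 3 of 16767 genes, none of them among the 10 or the companion lists; limma and edgeR called 0, and the cause was not tested. Gzmc was -0.049 with array weights, -0.024 by edgeR, -0.016 by DESeq2 and -0.19 without PIIO-1 tumor 5 and PBS tumor 4, a pair left out after the data were seen. Gzmf was -0.048 with array weights and -0.26 without that pair, with Gzmk at -0.23 and Nkg7 at -0.29 without it. Fasl was 0.015 by edgeR, 0.022 by DESeq2 and 0.020 with the CD3 covariate. With 1 tumor left out in turn, Gzma ran from -0.27 to 0.079, Gzmc from -0.18 to 0.16, Gzmd from -0.34 to 0.066, Gzmf from -0.16 to 0.35, Gzmk from -0.12 to 0.34, Nkg7 from -0.21 to 0.093 and Fasl from -0.23 to 0.12. The labels do not say what same-numbered tumors shared. Their deviations from the group means correlated across genes between -0.206 and 0.0954, and none of 5 pairs correlated best with its own number. A shared batch was not tested. With 1 tumor of each group per number, a block for replicate number cannot move an estimate, only its SE and p-value. With that block the adjusted p of Gzmb was 0.924 by limma, and the count of calls stayed at 0. A 1.5-fold higher value in PIIO-1 tumors lies inside the 95% interval for Gzmf and Gzmk, and a 1.5-fold lower value for the other genes except Gzmc.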
